A study of Dunaliella salina with 6 samples.

Results

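The Rieske iron-sulfur domain family of *Dunaliella salina* Bardawil was taken as every gene whose transcript models carry the Pfam accession PF00355 (Rieske domain) or PF13806 (a related Rieske-like domain) in the authors' annotation. This rule uses no expression value, but it was chosen with earlier results of these data known. It found 22 of the 25081 genes in the deposited table. PF00355 alone was carried by 18 genes, PF13806 alone by 1 gene, and both by 3 genes. *D. salina* is a green alga of single, naked cells that lives in brine. Wild-type vegetative cells of the Bardawil variety (UTEX LB 2538) were cultured at 24 °C in constant light, with 1 M NaCl in the medium, and harvested after 3 days, either without added iron (0 µM) or with 1.5 µM added iron. Each condition had 3 flasks and 1 poly(A) RNA library per flask, so the p-values measure the spread between flasks, and fewer transcripts per cell and a changed mix of cells cannot be told apart in such bulk RNA.

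A Rieske domain binds a cluster of iron and sulfur atoms, held by histidine as well as cysteine residues. In photosynthetic membranes the Rieske protein PETC passes electrons from plastoquinol towards cytochrome f in the cytochrome b6f complex, and RIP1 does the same work for ubiquinol in the mitochondrial cytochrome bc1 complex. Rieske domains also sit in oxygenases that take electrons from ferredoxin, among them chlorophyllide a oxygenase, which makes chlorophyll b, and pheophorbide a oxygenase, which opens the chlorophyll ring during breakdown. The question put to the data is how the transcripts of genes with these domains differ when no iron is added. Membership rests on domain accessions, and whether each member binds a cluster was not examined.

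Expression is given as FPKM, the authors' unit, which counts fragments per kb of transcript and per 1000000 mapped reads. The steps between low values implied 18400000 to 24700000 reads per library on the authors' scale. Only 27.9% to 45.2% of the low values lay within 0.05 of a whole read, so counts were not recovered. The steps were sharper in replicate 3 of both conditions than in replicates 1 and 2 of both, so values from replicates 1 and 2 and from replicate 3 are given separately where they bear on a result. The first principal component, with 63.3% of the variance, separated the conditions, and replicate 3 without added iron scored 18.3 where replicates 1 and 2 scored 30 and 32.4. Of the genes of gametes and zygotes that vegetative cells should lack, HAP2 was listed at 0 in all 6 libraries. GEX1 was listed at 0.201 to 0.353 FPKM without added iron, against 0.744 to 0.937 with 1.5 µM. When genes of all levels were tested, GEX1 was lower without added iron (log2 change -0.51, limma's adjusted p = 0.0421). Its part in the results was not tested. Of 13909 genes with a mean of at least 1 FPKM, 1306 differed between conditions by limma at an adjusted p under 0.05. That count was 586 to 792 without any single library other than replicate 3 of no added iron, and 1784 without that one. Of the 1306 genes 44.6% were higher without added iron, against 85.3% after columns were rescaled to a sum of 1000000, which moved the median log2 change of all genes from 0.00 to 0.17.

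Without added iron, 4 Rieske-domain genes fell and 0 rose, among 17 that could be tested. They were DsB_g21645, which carries both accessions, the cytochrome b6f gene PETC1, and the oxygenase-type genes DsB_g23034 and DsB_g21072. Over all tested genes 9.39% differed, 5.20% lower and 4.19% higher. Unadjusted p was under 0.05 for 9 of the 17. The log2 change, no added iron over added iron, was below 0 for 13 members and above 0 for 4, and its median was -0.21 where that of all tested genes was 0.00. After the rescaling to equal sums 10 members were below 0, and 13 were below the shifted median. The conditions did not overlap for 9 of the 17 members, against 30.2% of all tested genes. The family was chosen with earlier results known, so these shares are a description and not a test. The other 5 members had a mean under 1 FPKM and were not tested.

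**Figure D1:**
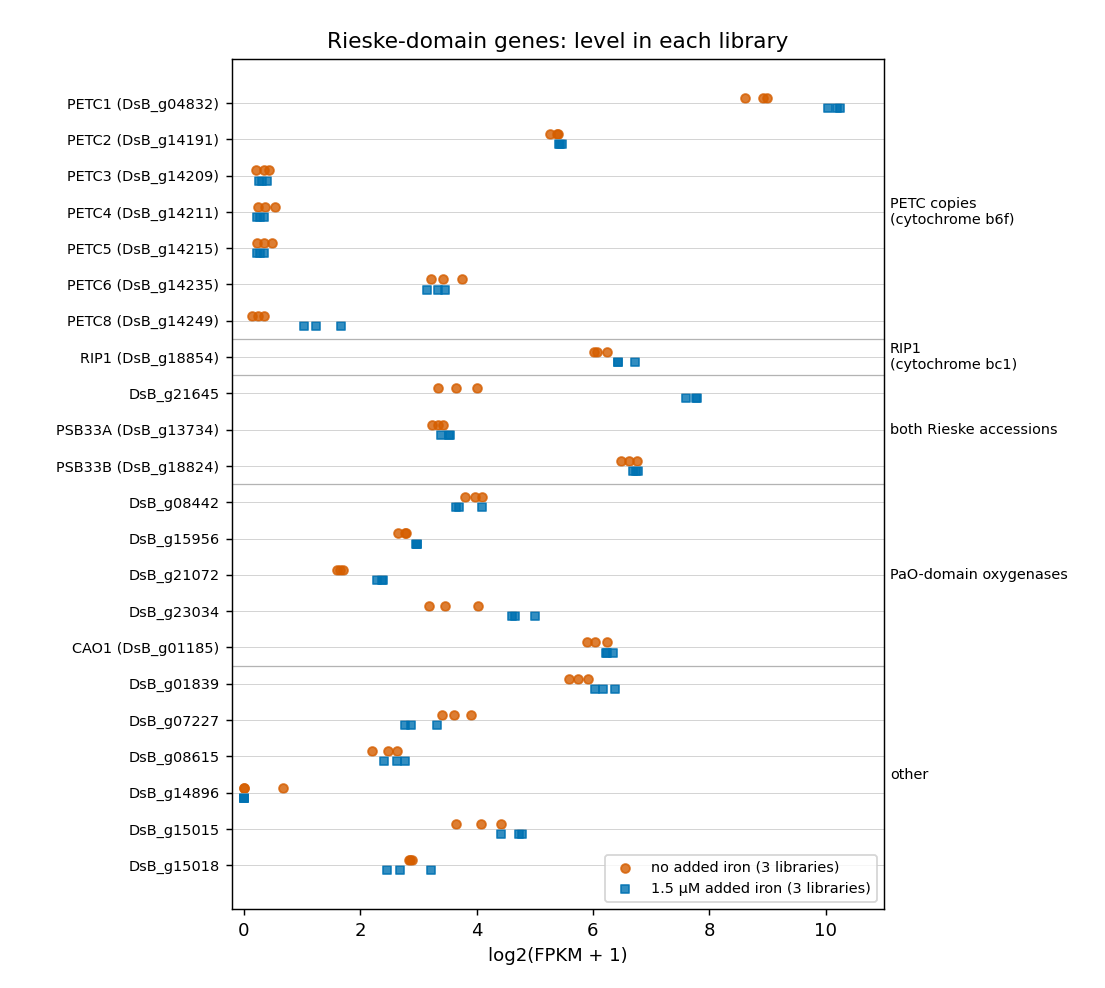
Level of each of the 22 Rieske-domain genes in each library, as log2(FPKM + 1) on the horizontal axis, with circles for the 3 libraries without added iron and squares for the 3 with 1.5 µM added iron, grouped by kind of gene. The widest gap between conditions is that of DsB_g21645, and PETC1 is the highest gene in every library.

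DsB_g21645 showed the widest difference of the family. It is a gene without symbol or product name, with 6 exons, on chromosome 13 at 6725127 to 6732512 (minus strand) in the authors' assembly. Its FPKM was 11.6, 9.06 and 15.0 in replicates 1, 2 and 3 without added iron, against 219, 193 and 218 with 1.5 µM. Every library with iron was thus above every library without it, and replicate 3 was the highest of the 3 libraries without iron. The means were 11.9 ± 2.97 and 210.0 ± 14.8 (SD, n = 3), so the level without added iron was 5.66% of that with it. The log2 change was -4.06 (SE 0.164, with adjusted p = 5.08e-06, limma), with values of -4.20 in replicates 1 and 2 and -3.78 between both replicate 3 libraries.

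The model of DsB_g21645 holds coding sequence only, 459 nt in all, which is enough for 152 residues. The short length leaves few reads behind the lower values: the steps implied 45.0 to 80.9 reads per library without added iron, against 935 to 1398 with 1.5 µM. Its nearest neighbour, DsB_g21646, starts 211 nt away on the opposite strand and did not pass the threshold (8.77 and 6.49 FPKM without and with added iron, log2 change 0.40, limma's adjusted p = 0.229). The neighbour on the other side, DsB_g21644, lies 15044 nt away on the same strand and did not pass either (0.16, limma's adjusted p = 0.326). No source used here says whether reads were assigned by strand.

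The genes outside the family with the profile most like that of DsB_g21645 were found by the root mean square difference of centred log2(FPKM + 1) values over the 6 libraries. This measure is a description, since any gene with a fall of similar size scores well. The closest was APX1A (DsB_g12482), which carries a heme peroxidase domain, at 0.10. Its FPKM was 10.1, 9.33 and 12.1 without added iron, against 203, 176 and 207 with 1.5 µM. Next were DsB_g14470, with a fasciclin domain, at 0.271, the ferredoxin gene FDX1B at 0.295, DsB_g10715, with a CDGSH iron-sulfur domain, at 0.324, and DsB_g19883, without a domain, at 0.436. All 5 had log2 changes between -4.58 and -3.33.

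PETC1 (DsB_g04832) was the most abundant Rieske-domain gene, and its level without added iron was 40.1% of that with it. It lies on chromosome 2 at 33361383 to 33365118 (minus strand), and its FPKM was 483, 389.5 and 505 in replicates 1, 2 and 3 without added iron, against 1169.9, 1055.0 and 1212 with 1.5 µM. The 2 ranges did not overlap, and replicate 2 was the lowest of each. The means were 459 ± 61.4 and 1146 ± 81.3 (SD, n = 3), which gives a log2 change of -1.32 (SE 0.123, with adjusted p = 0.000662, limma). It was -1.35 in replicates 1 and 2 and -1.26 between both replicate 3 libraries. PETC1 ranked 130 among the 13909 tested genes by mean FPKM.

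PETC1 is not the only gene with this name. The annotation gives the symbols PETC2 to PETC8 to 7 further models, all within 909 kb of chromosome 8, from 1144462 to 2053926, among 48 other gene models. Of these 7, 6 carry a Rieske accession and belong to the family. PETC7 carries only PF08802, a domain found at the start of plant-type b6f Rieske proteins, and is not a member. No gene in the span passed the threshold: of 55 models 32 were tested, with 0 higher and 0 lower by limma. Over all tested genes 9.39% differed in either direction.

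Gene structure groups the copies. After its first coding segment, PETC1 has segments of 121, 105, 140 and 46 nt, and PETC2 (in 1 of its transcript models), PETC4, PETC5 and PETC6 have a run of 4 segments with exactly these lengths, 412 nt in sum. PETC4 and PETC5 match each other in all 6 coding segments and 678 nt. PETC7 and PETC8 match each other in 3 segments and 498 nt. Equal lengths describe the models and are not a comparison of sequence, which was not analysed here.

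**Figure D2:**
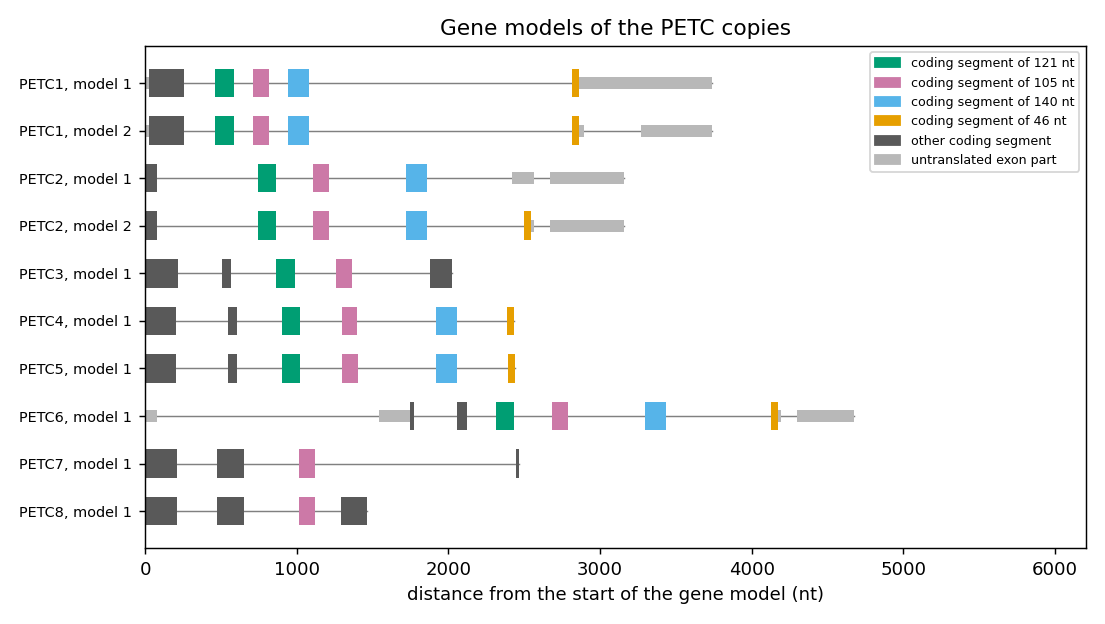
Gene models of the PETC copies, each drawn from its own start with distance in nt on the horizontal axis and 1 row per transcript model. Tall blocks are coding segments, coloured where their length equals that of PETC1 segments of 121, 105, 140 or 46 nt, thin grey blocks are untranslated exon parts and lines are introns; PETC2, PETC4, PETC5 and PETC6 share the whole coloured run with PETC1 in at least 1 model, PETC3 shares the segments of 121 and 105 nt, and PETC7 and PETC8 share only that of 105 nt.

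The copies on chromosome 8 were far less abundant than PETC1. PETC2 (DsB_g14191, 1144462 to 1147621, plus strand) had an FPKM of 41.2, 40.8 and 37.4 without added iron, against 43.5, 41.9 and 42.4 with 1.5 µM. The conditions did not overlap, but the gap was small, and the log2 change of -0.10 did not pass (SE 0.0854, with adjusted p = 0.532, limma). Its 95% interval of -0.29 to 0.10 leaves out a change as large as that of PETC1. PETC6 (DsB_g14235, 1808240 to 1812912, minus strand) had 10.1 ± 2.11 FPKM without added iron, against 8.97 ± 1.06 with 1.5 µM (SD, n = 3), which gives a log2 change of 0.15 with a 95% interval of -0.19 to 0.48 (SE 0.145, with adjusted p = 0.580, limma).

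The ratio of PETC1 to PETC2 within a library is unchanged by any factor that scales a whole library, though quantile normalization can change it. It was 11.7, 9.54 and 13.5 in replicates 1, 2 and 3 without added iron, against 26.9, 25.2 and 28.6 with 1.5 µM. The ratio was thus lower in each library without added iron. A two-sided exact permutation test on differences of log2(FPKM + 1) gave p = 0.1, the smallest that 3 against 3 libraries can give. That p was also 0.1 after adjustment over the 4 pairs of members compared. PETC1 held 89.9% ± 1.65 of the summed FPKM of the PETC members without added iron, against 95.5% ± 0.153 with 1.5 µM (SD, n = 3). The summed FPKM of the other PETC members was 51.0 ± 4.39 and 53.8 ± 2.10.

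PETC3, PETC4, PETC5 and PETC8 had a mean under 1 FPKM over the 6 libraries and were not tested. PETC3 to PETC5 lay between 0.154 and 0.452 FPKM in all libraries, for which the steps implied 1.45 to 3.96 reads. PETC4 and PETC5 were listed at the same FPKM in 3 of 3 libraries with added iron and in 0 of 3 without it. Reads common to such copies can be split between them by the counting, so their separate values are uncertain. PETC8 (DsB_g14249, 2052464 to 2053926, minus strand) had 0.186, 0.278 and 0.107 FPKM without added iron, against 1.37, 1.05 and 2.18 with 1.5 µM. The implied reads were 1.06 to 2.52 and 9.33 to 25.4. The 2 ranges did not overlap (exact permutation p = 0.1, the smallest possible), and when genes of all levels were tested its log2 change of -1.07 did not pass (limma's adjusted p = 0.0725). That change is on log2(FPKM + 1) and understates the ratio of mean FPKM, with added iron over without, which was 8.04 on few reads. PETC7, beside it, had 0.151 ± 0.0806 and 0.432 ± 0.229 FPKM (SD, n = 3).

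In the list for the rest of the cytochrome b6f complex, 3 of 14 tested genes fell and 0 rose, where 5.20% of all tested genes were lower. The median log2 change was -0.24, against 0.00 for all tested genes. All 3 are nuclear genes, and none is one of the listed assembly factors. PETO1, a subunit that associates with the complex and is phosphorylated in *Chlamydomonas*, had 107, 98.2 and 105 FPKM without added iron, against 487, 467 and 581 with 1.5 µM, a log2 change of -2.29 (SE 0.111, with adjusted p = 1.46e-05, limma). The small subunit gene PETN1 went from 387 ± 31.1 FPKM with added iron to 125 ± 15.5 without it (SD, n = 3), by -1.62 (limma's adjusted p = 0.000215), and PETM1 from 2577 ± 313 to 1304 ± 143, by -0.98 (limma's adjusted p = 0.00274). The 5 nuclear assembly factors on the list, CCB1 to CCB4 and CCS1, lay between -0.27 and 0.09 and none passed. The 6 plastome genes, among them those of cytochrome f and cytochrome b6, lay between -0.55 and 0.53, with a median of -0.07, and none passed. The most abundant of them, petD, had 1146 to 1855 FPKM without added iron, against 1936 to 2434 with 1.5 µM (-0.55, limma's adjusted p = 0.095). Plastid transcripts mostly lack the poly(A) tails that the libraries were selected for. Replicate values of some spread widely, from 0 to 189 FPKM for petG within the libraries with added iron.

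**Figure D3:**
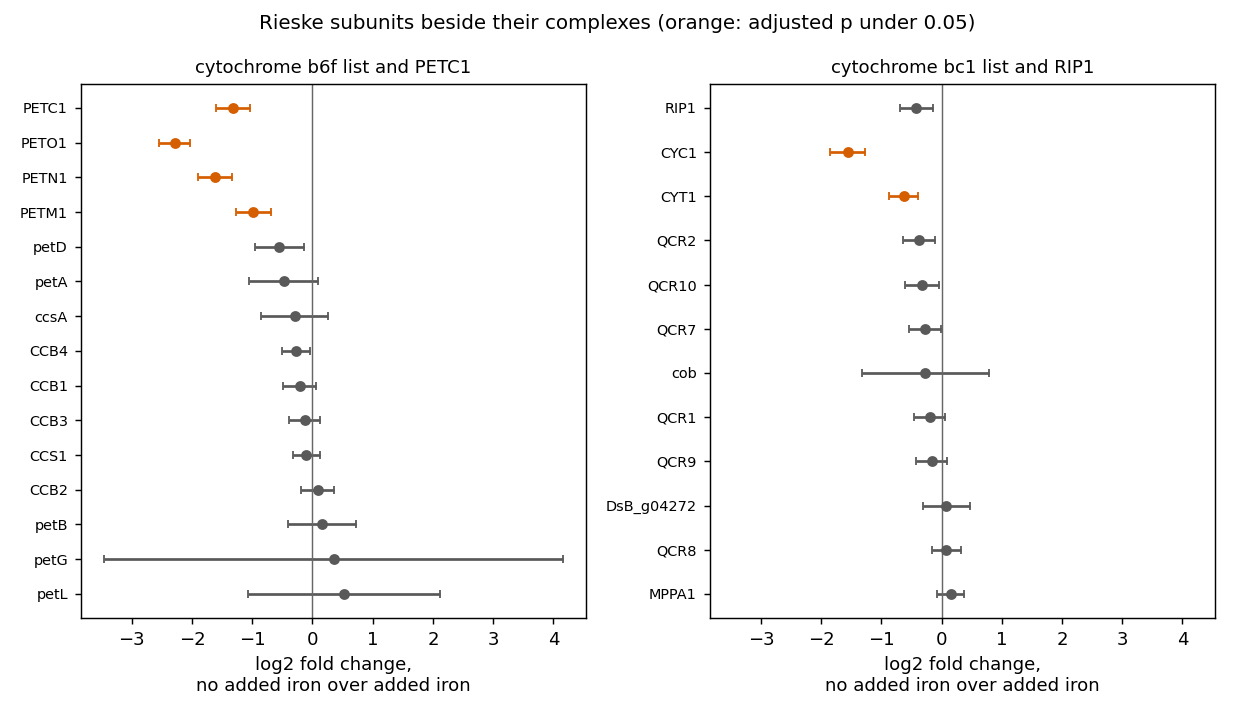
Log2 fold change (no added iron over added iron, on log2(FPKM + 1)) of PETC1 with the cytochrome b6f list on the left and of RIP1 with the cytochrome bc1 list on the right; points are limma estimates, bars their 95% intervals, and orange marks an adjusted p under 0.05. PETC1, PETO1, PETN1 and PETM1 lie left of 0, and RIP1 at -0.42 did not pass.

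RIP1 (DsB_g18854), the mitochondrial Rieske protein gene (chromosome 11, 4134563 to 4142369, plus strand), did not pass the test. Its FPKM was 74.8, 66.3 and 63.8 in replicates 1, 2 and 3 without added iron, against 85.5, 85.1 and 105 with 1.5 µM. The conditions did not overlap, and the highest value came from replicate 3 with added iron. The log2 change was -0.42 (SE 0.119, 95% interval -0.70 to -0.15, adjusted p = 0.0667 by limma). It was -0.27 in replicates 1 and 2 (limma's adjusted p = 0.116) and -0.72 between both replicate 3 libraries. With 3 other scalings of the libraries it passed, with an adjusted p between 0.0104 and 0.0291. The ratio of PETC1 to RIP1 was 5.87 to 7.92 without added iron, against 11.5 to 13.7 with 1.5 µM (exact permutation p = 0.1, the smallest possible).

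In the list for the rest of the cytochrome bc1 complex, 2 of 11 tested genes fell and 0 rose, where 5.20% of all tested genes were lower, and the median log2 change was -0.27. One is CYT1, with the domain of cytochrome c1, which takes electrons from RIP1. Its FPKM was 60.6, 55.4 and 57.6 without added iron, against 84.9, 84.8 and 101 with 1.5 µM, a log2 change of -0.63 (SE 0.104, with adjusted p = 0.00934, limma). The other is CYC1, which the list matched by symbol, but whose domains in the annotation are those of cytochrome c and not of cytochrome c1. It changed by -1.56 (limma's adjusted p = 0.000326). Without CYC1, 1 of 10 fell, where 5.20% of all tested genes were lower and 9.39% differed in either direction. A single gene does not set the list apart from these shares. The 9 others, which include the core and small subunits, did not pass.

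PSB33A and PSB33B are the other members with both accessions. PSB33 is known in *Arabidopsis* as a thylakoid protein with a Rieske-like domain that keeps photosystem II stable. PSB33B (DsB_g18824, chromosome 11, 3432377 to 3438963, plus strand) had 107, 97.1 and 88.0 FPKM without added iron, against 106, 102 and 109 with 1.5 µM. The conditions overlapped, and the log2 change was -0.12 (SE 0.103, 95% interval -0.36 to 0.11, adjusted p = 0.510 by limma). PSB33A (DsB_g13734, chromosome 7, 17792108 to 17793088, plus strand), a model of 1 exon, had 9.09 ± 0.698 and 10.2 ± 0.649 FPKM (SD, n = 3), with a log2 change of -0.15 (SE 0.0868, 95% interval -0.35 to 0.05, adjusted p = 0.318 by limma). The ratio of DsB_g21645 to PSB33B was 0.108, 0.0932 and 0.170 in replicates 1, 2 and 3 without added iron, against 2.06, 1.88 and 2.00 with 1.5 µM (exact permutation p = 0.1, the smallest possible). By FPKM, DsB_g21645 was thus the lower of both in each library without added iron and the higher in each library with it. The sum of coding length gives PSB33B 286 residues and PSB33A 326, against the 152 of DsB_g21645.

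Of the family, 5 members join the Rieske domain to PF08417, the PaO domain named for pheophorbide a oxygenase. By limma 2 of these 5 fell, where 5.20% of all tested genes were lower. DsB_g23034 (chromosome 14, 13534303 to 13556018, plus strand, 14 exons) had an FPKM of 9.98, 8.05 and 15.2 in replicates 1, 2 and 3 without added iron, against 31.0, 23.5 and 24.2 with 1.5 µM. The 2 ranges did not overlap, and replicate 3 without added iron lay nearest to the libraries with iron. The log2 change was -1.21 (SE 0.208, with adjusted p = 0.0110, limma), but it was -1.49 in replicates 1 and 2 and -0.64 between both replicate 3 libraries. Without the filter on low values DsB_g23034 did not pass (limma's adjusted p = 0.113). DsB_g21072 (chromosome 12, 16907202 to 16933608, minus strand, 14 exons) was the least abundant tested member, with 2.27, 2.03 and 2.14 FPKM without added iron, against 4.17, 4.26 and 3.90 with 1.5 µM. These values were close within each condition and clear of each other, with a log2 change of -0.70 (SE 0.0954, with adjusted p = 0.00414, limma). As counts of reads these levels are low, with 108 to 125 and 225 to 266 implied reads per library.

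CAO1 (DsB_g01185, chromosome 1, 17384982 to 17394121, minus strand), the gene for chlorophyllide a oxygenase, was the most abundant of the 5. Its FPKM was 74.6, 64.7 and 58.5 without added iron, against 73.5, 75.0 and 80.2 with 1.5 µM. The conditions overlapped, since replicate 1 without added iron was above replicate 1 with it, and the log2 change was -0.21 (SE 0.112, 95% interval -0.47 to 0.05, adjusted p = 0.286 by limma). DsB_g15956 had 5.68 ± 0.372 and 6.86 ± 0.0382 FPKM (SD, n = 3), for a log2 change of -0.24 with an adjusted p of 0.102. DsB_g08442 had 14.6 ± 1.54 and 13.2 ± 2.54 FPKM, a log2 change of 0.14 with a 95% interval of -0.17 to 0.46.

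DsB_g23034 and DsB_g08442 differ in level ratio although their models are alike. Both have 14 coding segments, with a run of 6 of equal length (765 nt), and DsB_g21072, with 13, shares runs of 5 with DsB_g23034 and of 4 with DsB_g08442. The FPKM of DsB_g23034 was 0.619, 0.618 and 1.03 times that of DsB_g08442 in replicates 1, 2 and 3 without added iron, against 1.92, 1.95 and 2.11 times with 1.5 µM (exact permutation p = 0.1, the smallest possible). DsB_g23034 was thus below or level with DsB_g08442 without added iron, and above it in every library with iron.

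Models with the Rieske domain alone also lie next to models with the PaO domain alone, in 2 pairs on the plus strand of chromosome 8. DsB_g15015 (13234366 to 13236823) ends 1718 nt before DsB_g15016, and DsB_g15018 (13251501 to 13255194) ends 2070 nt before DsB_g15019. Both second models carry PF08417 and no Rieske accession, and whether each pair is 1 gene cannot be told from the annotation. The values were close within the first pair and less so within the second. DsB_g15015 had 15.9, 11.6 and 20.5 FPKM without added iron, against 26.5, 20.5 and 25.4 with 1.5 µM, a log2 change of -0.59 (SE 0.191, with adjusted p = 0.0978, limma). DsB_g15016 had 14.9, 10.8 and 16.4 FPKM and 25.2, 21.6 and 21.9, a log2 change of -0.68 that passed (SE 0.148, with adjusted p = 0.0271, limma). Replicate 3 without added iron was the highest of its condition in both, and for DsB_g15015 it met the lowest library with iron. With replicate 3 of no added iron left out, DsB_g15015 passed too, at -0.78 (limma's adjusted p = 0.0229). In the second pair, DsB_g15018 had 6.28 ± 0.0915 and 6.10 ± 1.99 FPKM (SD, n = 3) and DsB_g15019 had 4.36 ± 0.147 and 4.63 ± 0.203, with log2 changes of 0.07 and -0.07, and neither passed.

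The remaining model with the PaO domain and no Rieske accession, DsB_g21967 on chromosome 13, stood alone and rose without added iron. Its FPKM was 3.22, 3.51 and 2.93 without added iron, against 1.04, 1.49 and 1.68 with 1.5 µM, a log2 change of 0.82 (SE 0.141, with adjusted p = 0.0109, limma). It was picked after its values had been seen.

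Among the remaining members, DsB_g07227 (chromosome 4, 420848 to 444749, minus strand, 22 exons) had the highest log2 change of the family. Its FPKM was 13.9, 9.56 and 11.2 without added iron, against 8.96, 6.37 and 5.83 with 1.5 µM. The conditions did not overlap, although replicate 2 without and replicate 1 with added iron were close. The log2 change was 0.64 (SE 0.170, 95% interval 0.25 to 1.04) with a limma adjusted p of 0.0544. It passed in 4 of 15 other settings, which are without replicate 1 of added iron, with the replicate number as a block, with a filter at 5 FPKM and after rescaling to equal sums.

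DsB_g01839 (chromosome 1, 26337018 to 26343200, plus strand), the member with PF13806 alone, had 59.4, 52.6 and 47.2 FPKM without added iron, against 64.9, 71.4 and 82.0 with 1.5 µM. The 2 ranges did not overlap, with a log2 change of -0.45 (SE 0.125, with adjusted p = 0.0645, limma), and -0.28 in replicates 1 and 2 against -0.78 in replicate 3. It passed under 3 of 15 other settings, all of them scalings. DsB_g08615 (chromosome 4, 21573915 to 21581912, minus strand) had 4.46 ± 0.787 and 5.13 ± 0.756 FPKM (SD, n = 3) and a log2 change of -0.17 with a 95% interval of -0.48 to 0.15. DsB_g14896 (chromosome 8, 11637132 to 11638641) was listed at 0 in 5 libraries and at 0.589 FPKM in replicate 3 without added iron, where the step implied 0.907 reads.

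**Figure D4:**
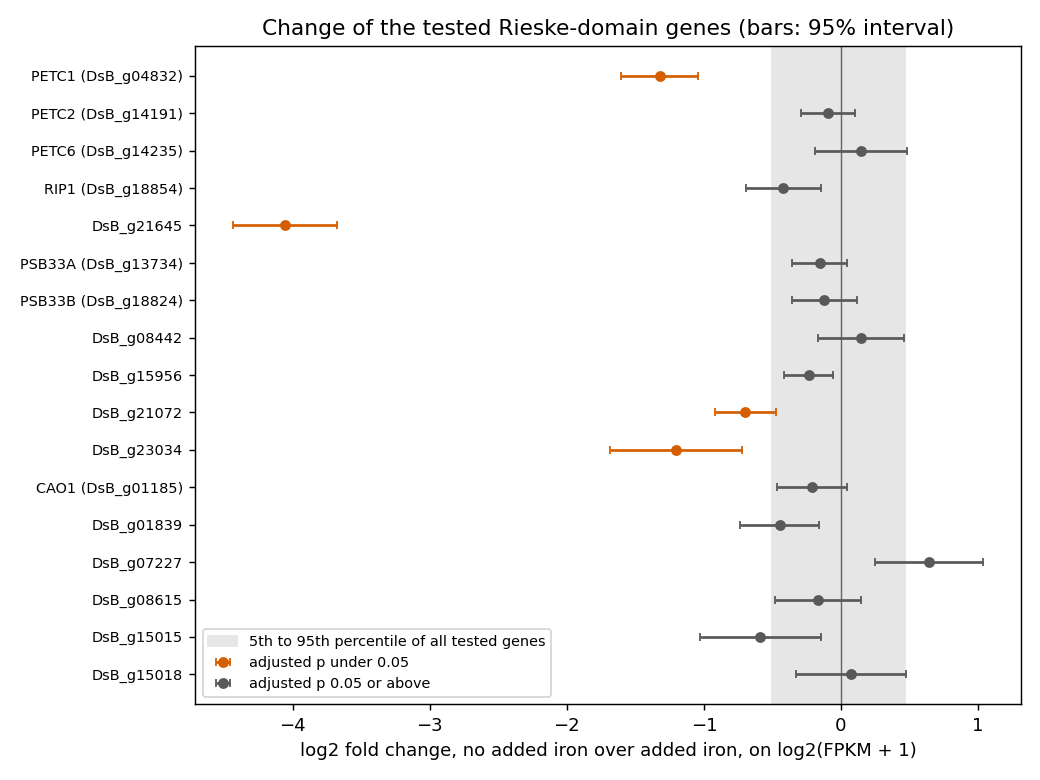
Log2 fold change of the 17 tested Rieske-domain genes on the log2(FPKM + 1) scale, with positive values higher without added iron, as limma estimates with 95% intervals; orange marks an adjusted p under 0.05 and the grey band spans the 5th to 95th percentile of all tested genes, -0.50 to 0.47. DsB_g21645, PETC1, DsB_g23034 and DsB_g21072 are orange, and all have estimates left of the band.

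The order of levels within the family differed between conditions mainly through DsB_g21645. FPKM is a level per kb of transcript model, so members can be set beside each other only as far as their models are complete. The model of DsB_g21645 is short and has no untranslated parts. With added iron the steps implied 935 to 1398 reads for it, against 2811 to 3890 for PSB33B, so its place in the order depends on the length of its model. With added iron the order of means was PETC1 at 1146, DsB_g21645 at 210.0, PSB33B at 106, RIP1 at 92.0, CAO1 at 76.2 and DsB_g01839 at 72.8 FPKM. The ranges of PSB33B and RIP1 overlapped, as did those of CAO1 and DsB_g01839. Without added iron PETC1 was still first at 459, followed by PSB33B at 97.5, RIP1 at 68.3, CAO1 at 65.9 and DsB_g01839 at 53.1 FPKM, where CAO1 overlapped with both RIP1 and DsB_g01839. DsB_g21645 was then 9 in the order, between DsB_g08442 at 14.6 and DsB_g07227 at 11.5 FPKM, and its range overlapped those of both.

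Summed over the 22 members, FPKM was 950.9, 799.6 and 913.9 in replicates 1, 2 and 3 without added iron, against 1888, 1726 and 1964 with 1.5 µM. This is 0.177% ± 0.0155 of all FPKM without added iron, against 0.327% ± 0.00896 with 1.5 µM (SD, n = 3). PETC1 held 51.6% ± 3.37 and 61.6% ± 0.458 of the sum, and DsB_g21645 1.33% ± 0.272 and 11.3% ± 0.265. The other 20 members summed to 417 ± 34.0 FPKM without added iron, against 504 ± 27.3 with 1.5 µM. Most of the difference in the sum thus lay in PETC1 and DsB_g21645.

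**Figure D5:**
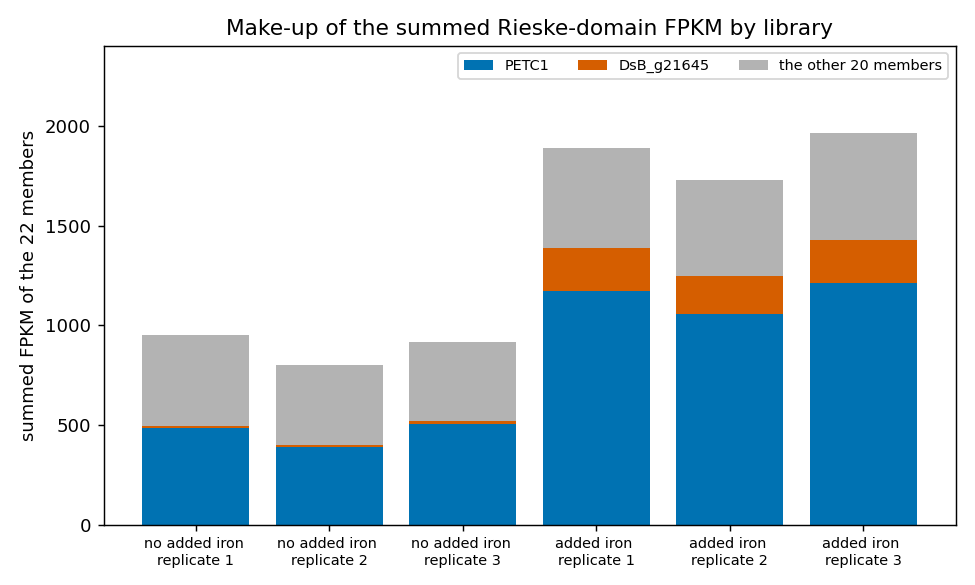
Summed FPKM of the 22 Rieske-domain genes in each library, with 1 stacked bar per library split into PETC1, DsB_g21645 and the other 20 members. Bars reach 799.6 to 950.9 without added iron, against 1726 to 1964 with 1.5 µM, and the DsB_g21645 part is barely visible without added iron.

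Genes that work beside the Rieske oxygenases were taken from lists by symbol or domain. Of 5 genes listed for chlorophyll breakdown and for interconversion of chlorophylls a and b, 2 fell and 0 rose (median log2 change -0.17), where 5.20% of all tested genes were lower. HCAR1, for hydroxymethyl chlorophyll a reductase, went from 14.3 ± 1.19 to 5.66 ± 1.63 FPKM (SD, n = 3), for a log2 change of -1.23 (limma's adjusted p = 0.00359). NYC1, for chlorophyll b reductase, went from 14.7 ± 1.20 to 8.82 ± 0.355, by -0.68 (limma's adjusted p = 0.00276). Both act on the way from chlorophyll b to chlorophyll a, opposite to CAO1, which did not pass. PPH1 was matched by symbol, but its domains are those of a protein phosphatase, and without it 2 of 4 fell.

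Ferredoxin is the electron donor of plant Rieske oxygenases. Of 13 genes matched by a ferredoxin domain or symbol, 7 fell and 0 rose, where 5.20% of all tested genes were lower, and the median log2 change was -0.44. Of the 8 with an FDX symbol 3 fell. FDX1B had 41.4, 34.5 and 66.3 FPKM without added iron, against 534, 509.9 and 542 with 1.5 µM, a log2 change of -3.51 (limma's adjusted p = 6.30e-05). FDX11 changed by -1.64 (limma's adjusted p = 0.0014) and FDX6 by -0.70 (limma's adjusted p = 0.00513). The other 4 that fell were FNR1 (ferredoxin-NADP reductase, -0.54), XDH1 (-0.53), NUOS1 (-0.76) and DsB_g16638 (-0.44), none of them a ferredoxin by name. FDX1A, at 4955 ± 257 and 4596 ± 477 FPKM without and with added iron (SD, n = 3), did not pass (log2 change 0.11, limma's adjusted p = 0.531). Of 3 nitrite and sulfite reductase genes, NII1 (nitrite reductase) fell, against the same 5.20%, by -0.92 (limma's adjusted p = 0.00196). None of 3 listed genes of plastid protein import, which uses a Rieske protein in plants, passed by limma, and their log2 changes lay between -0.21 and 0.01.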

How the data were processed

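Single-end 50 nt reads from poly(A)-selected RNA were aligned by the authors to their own assembly with STAR 2.4.0j and quantified with Cuffdiff 2.0.2, per the submitters' processing notes and the series' design text. The deposited values are FPKM (fragments per kb of transcript and per 1000000 mapped reads, the authors' unit), 1 column per library, and depth is not stated. No source used here gives how reads that match several copies were assigned or whether strand was used. This bears on the PETC copies.

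Members and partner genes were found in the deposited annotation by Pfam accession or symbol, and members and lists were chosen with earlier results of these data known. Values were tested as log2(FPKM + 1) with limma 3.58.1 in R 4.3.3 (mean-variance trend, two-sided, Benjamini-Hochberg over the 13909 genes with a mean of at least 1 FPKM, threshold 0.05). A fold change on this scale understates the change of low genes. The scripts were tested on simulated data. Every member is accounted for, with full values for those past the threshold or with a symbol, and the 5 genes most like DsB_g21645 are named. Scaling, filter, pseudocount, left-out libraries and a replicate block were varied in 15 alternatives. Of the identifiers 0 matched the reference table at hand, which is of another strain, so no sequence is printed.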

Additional observations from a re-analysis of the deposited data

How the results depend on the processing

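DsB_g21645 and PETC1 passed the threshold in all 15 alternatives, with log2 fold changes of -4.22 to -3.89 and -1.40 to -1.07. DsB_g21072 passed in all 14 that tested it, and DsB_g23034 in 14 of 15, the exception being no filter on low values (adjusted p = 0.113). No member past the threshold changed direction in any of them, nor did any of the 5 genes most like DsB_g21645. Genes of the partner lists and other genes outside the family were not followed through the alternatives. Of the members that did not pass, rescaling columns to 1000000 turned the log2 change of PETC2 from -0.10 to 0.08. It turned that of PSB33A from -0.15 to 0.01 and that of PSB33B from -0.12 to 0.06. DsB_g15018, at 0.07, lay between -0.09 (without replicate 2 of added iron) and 0.29 when any single library was left out. None of these values passed the threshold. The count of Rieske-domain genes past the threshold was 3 with no filter on low values, 6 with median-of-ratios factors, 7 under quantile normalization and 7 after the rescaling, against 4, and 4 to 5 when any single library was left out. The count over all genes, 1306 of 13909 tested, moved as well. It became 547 of 25081 with no filter on low values, where all 22 members were tested. Of the 13909 genes it was 1909 with median-of-ratios factors, 2148 under quantile normalization and 3736 after rescaling (85.3% higher, against 44.6%). It was 586 to 1784 when any single library was left out. With the replicate number as a block it was 813, with 5 Rieske-domain genes. Same-numbered libraries correlated at 0.0246, 0.0776 and -0.135 in their deviations from the condition means, and not every library correlated best with its own. With so few libraries per condition, these values cannot tell whether same-numbered libraries were handled together. The cause of the shifts between settings was not tested. Few reads behind PETC3 to PETC5, PETC8 and DsB_g14896 limit what can be said of them.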
